A study of Homo sapiens with 12 samples.

Results

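Protected RNA was described at 8 gene loci that encode parts of the translation machinery. They are the elongation factor genes EEF1A1, EEF2 and EEF1G, the initiation factor genes EIF4A1, EIF4A2 and EIF4G2, the poly(A)-binding protein gene PABPC1, and TPT1. A site belonged to a locus if its midpoint lay between fixed bounds on the strand of the gene. The 6 replicate lists held 879 such sites of 513381 in all (0.171%), with 171 in EEF2, 155 in EIF4G2, 122 in EIF4A1, 118 in EIF4A2, 102 in PABPC1, 96 in EEF1A1, 63 in EEF1G and 52 in TPT1. The genes were picked with these same lists in view, so that their number of sites describes the choice and carries no test.

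The lists come from protein interaction profile sequencing in HEK293T, an established human embryonic kidney cell line. Cells were fixed with 1% formaldehyde for 10 min, which ties proteins to RNA. Lysates were then digested by an enzyme for unpaired RNA (ssRNase; RNase ONE) or by an enzyme for paired RNA (dsRNase; RNase V1). In the footprint libraries the proteins were still on the RNA during digestion, and in the digestion controls they had been removed first, so a site is a stretch that was called protected only where protein was present. Each nuclease had 3 footprint libraries and 3 digestion controls, 12 libraries in all, and every library came from the same fixed cell line with no other treatment. Whether replicates were separate cultures is not stated in the labels, and a p-value here reflects how far these lists scatter, which may be technical.

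Elongation factors bring aminoacyl-tRNA to the ribosome and move it along the message, whereas initiation factors unwind the leader of the mRNA and bring the small ribosomal subunit to it. The messages for these proteins are among the abundant ones of growing cells. Many of them open with a cytidine followed by a run of pyrimidines, the terminal oligopyrimidine motif, through which growth signals by way of mTOR set how well they are translated. TPT1, the translationally controlled tumour protein, is counted with them because its message is a classic carrier of that motif and its protein is known to bind elongation factor 1A.

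The starts are shown because this motif is what the group is best known to share. They were read from RefSeq (GRCh38.p14) on the strand of the gene, from 10 bases before the listed start to 15 bases from it. A run counted if it opened with C at the start itself and held at least 5 bases that are each C or T. Capitals mark that run.
EEF1A1: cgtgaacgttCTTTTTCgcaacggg
EEF2: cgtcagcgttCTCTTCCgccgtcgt
EIF4A2: gcgccgctgtCTTTTCagtcgggcg
TPT1: ctgagtcggcCTTTTCCgcccgctc
EEF1G: cgggcggcttactttgcggcagcgc
EIF4A1: ggcactccgccctagtttctaagga
EIF4G2, start 1: tgtcggaagcacttccctaacttgc
EIF4G2, start 2: acgccttagcgccagcagtgagtcg
These windows lie at chr6:73521018-73521042 (minus), chr19:3985449-3985473 (minus), chr3:186783567-186783591 (plus), chr13:45341169-45341193 (minus), chr11:62573877-62573901 (minus), chr17:7572815-7572839 (plus), chr11:10807982-10808006 (minus) and chr11:10808912-10808936 (minus), in the order given. The run stood at the listed start of 4 of the 7 members shown, EEF1A1, EEF2, EIF4A2 and TPT1. PABPC1 is not shown. Counted by start, 4 of the 8 printed held the run. Of all 35116 starts in the table, 1429 (4.069%) held it. A listed start can lie a few bases from the start used in these cells, and a start without the run says only that these letters are not at that place. These are the coordinates of the reference, and all positions below are hg19, the build of the lists. No coordinate was carried from one build to the other.

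The lists differed greatly in length. The ssRNase lists held between 57481 and 209922 sites and between 2915002 and 10193603 site bases, with replicate 2 the shortest, and the dsRNase lists held between 21561 and 28413 sites and between 798935 and 979087 site bases. On the minus strand lay 56.6% to 58.8% of all ssRNase sites and 63.2% to 78.4% of all dsRNase sites, and 6 of the 8 loci are on that strand. The files give no read counts, so the depth behind a site is unknown. Exons, introns and untranslated regions were not assigned to sites, because the annotation at hand is of another build. Other genes of translation were not analysed here for the same reason.

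The 8 loci together held about the same number of protected bases with either nuclease. The ssRNase lists held 9562, 2635 and 6134 bases there and the dsRNase lists 5406, 6241 and 6773. The mean was 6110 ± 3464 bases with ssRNase and 6140 ± 689 with dsRNase (SD, n = 3 lists of each; two-sided exact permutation p = 1.0). The dsRNase values lay inside the range of the ssRNase values, which were spread far more widely. As a share of the list the order was clear. The loci took 938, 904 and 757 of every 1000000 site bases in the ssRNase lists and 6565, 6374 and 8478 in the dsRNase lists. Means were 866 ± 96.2 and 7139 ± 1163 (SD, n = 3 of each), and no dsRNase list came near an ssRNase list. The two-sided exact permutation p was 0.1, the lowest value open to groups of 3.

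**Figure D1:**
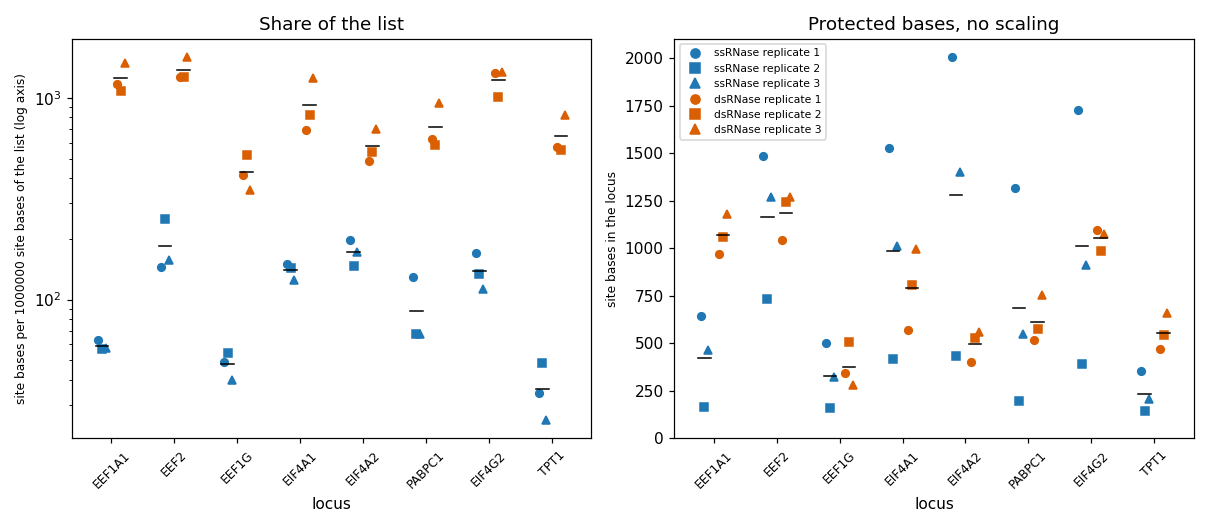
Protected bases of each locus in the 6 replicate lists, as a share of the list in site bases per 1000000 (left, log axis) and as site bases without scaling (right). Points are lists, with the replicate given by the marker shape, and bars are means of 3 lists. On the left the dsRNase lists lie above the ssRNase lists at 8 of 8 loci, and on the right the nucleases part only at EEF1A1 and TPT1.

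Each locus was then compared between nucleases by limma on log2(x + 20), where x is the number of site bases per 1000000 of the list, fitted over all 31428 features together. A feature was a locus or a stranded stretch of 10000 bp with a site in at least 3 of the 6 lists. All 8 loci had sites in all 6 lists, and 8 of 8 had a higher share with dsRNase at an adjusted p below 0.05, against 7.03% of all features called in that direction and 26.6% called higher with ssRNase. A better measure for loci that are present throughout is the fit over the 4478 features with a site in all 6 lists, where 39.0% were called higher with dsRNase and 2.1% with ssRNase. The median difference, ssRNase minus dsRNase, was -2.79 over the loci, 0.43 over all features and -0.68 over the features with a site in all 6 lists. Shares did not overlap between nucleases at 8 of 8 loci, against 9.56% of all features with the dsRNase lists on top and 47.5% of those with a site in all 6 lists. Because the genes were picked from these lists, the adjusted p-values below do not show that translation factors stand apart from other genes.

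A share depends on the length of the list, and in bases most of these differences were gone. In the same fit on bases without scaling, a choice made after seeing the data, 2 of 8 loci, EEF1A1 and TPT1, were higher with dsRNase, against 0.363% of all features, and 0 of 8 were higher with ssRNase, against 65.8%. The median difference over the loci was then -0.24 and over all features 2.09. Bases did not overlap between nucleases at the same 2 loci, against 0.465% of all features with dsRNase on top and 0.849% of those with a site in all 6 lists. EIF4A1 and EIF4A2 turned to the ssRNase side, by 0.17 and 1.09, without passing the test. Calls on shares also fell to 5, 2 and 2 of 8 without ssRNase replicate 1, 2 or 3, where the rule of at least 3 lists leaves 16295, 19687 and 16476 features. EEF1A1 and TPT1 passed in each of these. When the 31428 features with a site in at least 3 of the 6 lists were kept, 8 of 8 loci passed. That choice of features still uses the list left out.

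**Figure D2:**
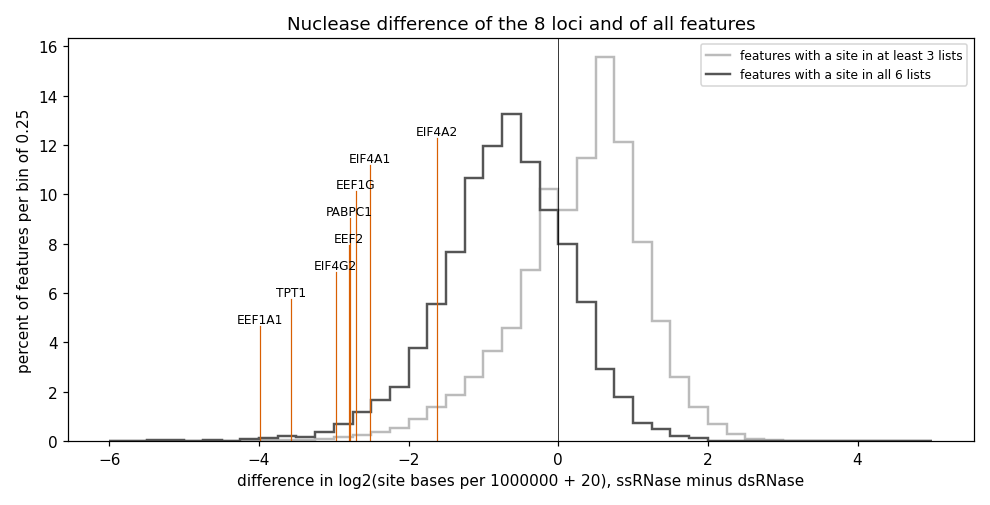
Difference between nucleases in log2(site bases per 1000000 + 20), ssRNase minus dsRNase. Grey steps give the percent of features per bin of 0.25 for features with a site in at least 3 lists and in all 6 lists, and vertical lines of staggered height mark the 8 loci. All 8 lie to the left of both medians, 0.43 and -0.68, with EEF1A1 farthest out at -3.99 and EIF4A2 nearest at -1.62.

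Per length, the loci were ordered differently under the 2 nucleases. With dsRNase the protected bases per 1000 nt of locus were highest at EEF1A1 (203 ± 20.2) and then TPT1 (139 ± 23.6), EEF2 (126 ± 13.2), EIF4A1 (125 ± 33.9), EIF4G2 (92.0 ± 5.05), EIF4A2 (78.5 ± 13.2), PABPC1 (32.0 ± 6.45) and EEF1G (26.1 ± 8.22; SD, n = 3 for each). The lists of neighbours in this order overlapped, except that EEF1A1 lay above TPT1 and EIF4A2 above PABPC1 in all lists. With ssRNase the same density was highest at EIF4A2 (202 ± 126) and EIF4A1 (156 ± 87.6), and lowest at PABPC1 (35.8 ± 29.8) and EEF1G (22.7 ± 11.9; SD, n = 3 for each). EEF1A1, first with dsRNase, held 80.4 ± 45.8 with ssRNase, and all neighbours in the ssRNase order overlapped. PABPC1 and EEF1G are the longest loci, and their density is set against the whole locus, introns included.

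EEF1A1 encodes elongation factor 1A, the GTPase that carries aminoacyl-tRNA to the ribosome. Its locus (chr6:74225473-74230755, minus) had 644, 165 and 465 protected bases in the ssRNase lists and 969, 1060 and 1182 in the dsRNase lists. Every dsRNase list was above every ssRNase list, also in bases. As a share, it held 59.1 ± 3.59 bases per 1000000 with ssRNase and 1246 ± 207 with dsRNase (SD, n = 3 of each), a ratio of 21.1. The log2 difference was -3.99 (SE 0.186, limma adjusted p = 0.00427), and in bases without scaling it was -1.48 (limma adjusted p = 0.0473).

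The nucleases also protected different stretches of EEF1A1. With each locus cut into 5 sections of equal length from its 5′ bound, section 2 held 39.6% ± 2.59 of the dsRNase bases and 5.75% ± 9.95 of the ssRNase bases (SD, n = 3 of each), and section 5 held 3.47% ± 1.46 and 46.2% ± 16.1. In both sections the lists of the nucleases did not overlap. Sections named here and below were picked from the 5 of each locus by their values, so lists that lie apart carry no test. ssRNase replicate 2 had only 4 sites in this locus, and its percentages rest on those. Long dsRNase sites of 146, 137 and 165 nt covered nearly the same place in replicates 1, 2 and 3, the longest of them chr6:74229061-74229225, and no ssRNase list had a site there. Of the 68 dsRNase sites in the locus 86.8% recurred in another dsRNase list, but only 26.5% met an ssRNase site. Scores, which rank sites within a list, were high with dsRNase, where the median site of the locus stood at percentile 91.0, 92.1 and 92.8 of its list. In the ssRNase lists it stood at percentile 72.3, 52.6 and 46.4. The only merged site joined from all 6 lists was chr6:74227515-74227655, of 141 nt. Within it 27 nt were covered in every list, and the longest stretch of them was 19 nt (chr6:74227596-74227614).

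EEF2, the GTPase that moves the ribosome along by a codon, had the most sites. Its locus (chr19:3976054-3985467, minus) held 1485, 732 and 1271 protected bases with ssRNase and 1044, 1242 and 1272 with dsRNase. These ranges overlap, and in bases the difference was -0.08 (limma adjusted p = 0.829). Shares were 184.6 ± 57.9 and 1376 ± 187 bases per 1000000 (SD, n = 3 of each), a ratio of 7.46 and a log2 difference of -2.80 (SE 0.252, limma adjusted p = 0.00456). On average both nucleases had the most bases in section 2 (28.9% ± 5.68 with ssRNase and 33.2% ± 3.79 with dsRNase; SD, n = 3 of each), although ssRNase replicate 3 had more in section 4. Section 4 held 21.5% ± 6.36 of ssRNase bases and 12.5% ± 4.19 of dsRNase bases, and there the lists did not overlap, with a lowest ssRNase value of 15.3% and a highest dsRNase value of 15.0%.

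EEF2 had 5 merged sites joined from all 6 lists, the most of any of the loci. A merged site joins neighbouring sites, so its lists need not share a base. Only 2 stretches of EEF2, 71 nt in all, were covered in every list, against 116 nt at EIF4A2 and 93 nt at EIF4A1. At chr19:3982497-3982573 the dsRNase lists agreed almost to the base, with sites that began at 3982505 and ended at 3982570 or 3982571, and 43 nt (chr19:3982505-3982547) were covered in every list. The best-scoring site of the locus lay here in 5 of the 6 lists, between percentile 98.1 and 99.9 of the list. dsRNase replicate 2 had its best at chr19:3981341-3981438. In another of the 5, chr19:3980516-3980615, the nucleases met rather than overlapped in most lists. The ssRNase sites there began between 3980573 and 3980574, and the dsRNase sites of replicates 2 and 3 ended at 3980562. Only the dsRNase site of replicate 1 ran on to 3980584.

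EEF1G encodes a structural subunit of the complex that reloads elongation factor 1A with GTP. The locus (chr11:62327073-62341460, minus) was thinly protected, with 500, 159 and 322 bases in the ssRNase lists and 341, 507 and 278 in the dsRNase lists. The ranges overlap, and the difference in bases was -0.28 (limma adjusted p = 0.611). Shares were 47.8 ± 7.48 with ssRNase and 427 ± 85.6 with dsRNase (SD, n = 3 of each), a log2 difference of -2.71 (SE 0.212, limma adjusted p = 0.00446). It was the only one of the loci with no merged site from all 6 lists. No base was covered in more than 4 lists, and the longest stretch covered in 4 was 47 nt (chr11:62333614-62333660). Section 3 held the most ssRNase bases, 43.1% ± 10.3, and 22.1% ± 8.56 of the dsRNase bases (SD, n = 3 of each), and the dsRNase lists had no base in section 4. ssRNase replicate 2 had only 4 sites in this locus, and its percentages rest on those. Only 18.4% of the 38 dsRNase sites of EEF1G met an ssRNase site, the lowest share of the loci.

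**Figure D3:**
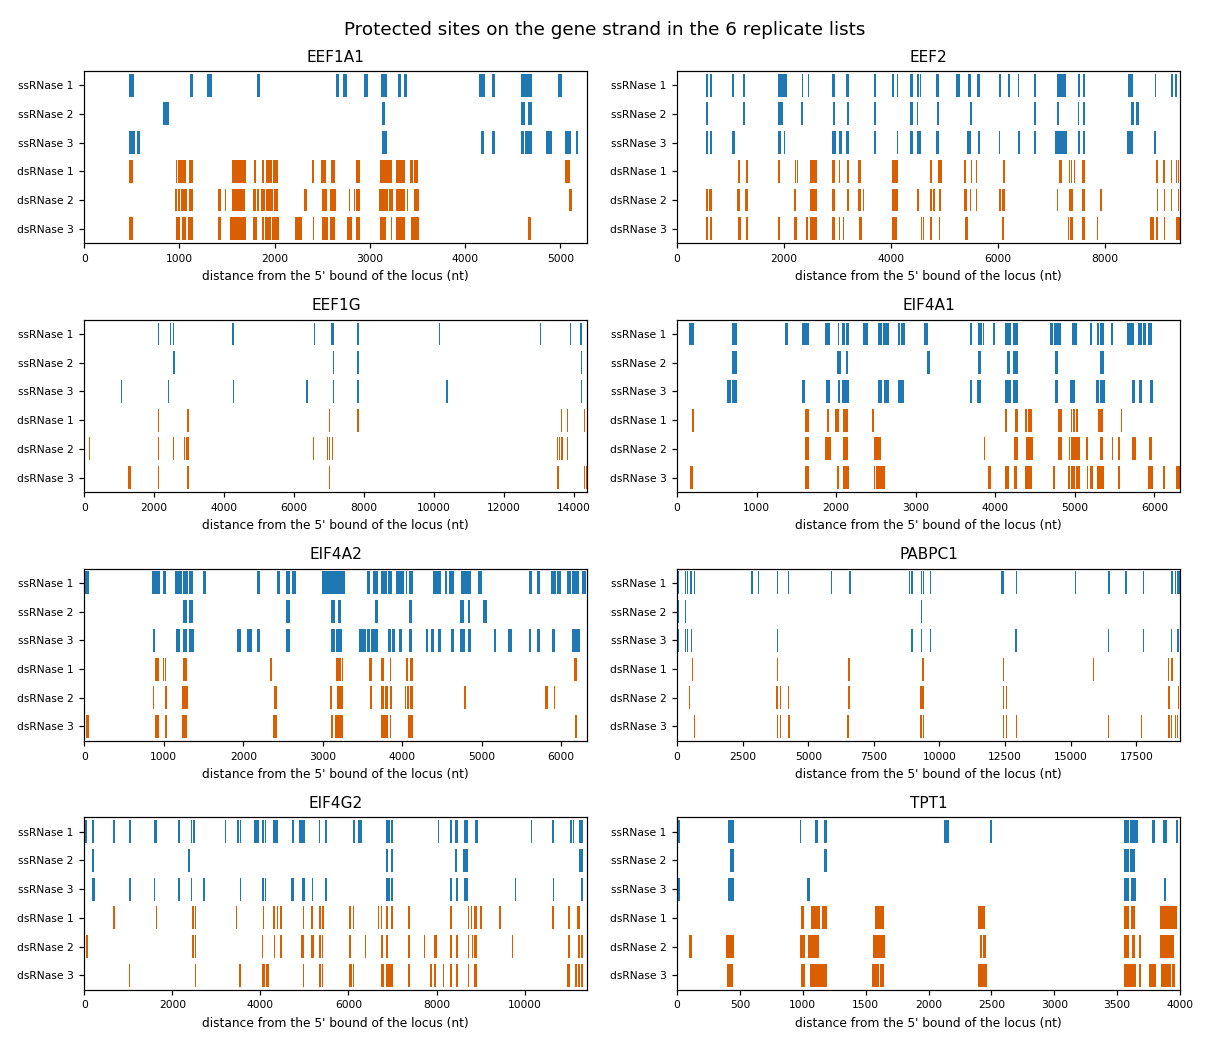
Protected sites on the gene strand of each locus, drawn to scale by distance from the 5′ bound of the locus in nt, with 1 row for each of the 6 replicate lists (3 ssRNase in blue, 3 dsRNase in orange). At EEF1A1 few dsRNase sites lie near the 3′ end, where several ssRNase sites do, while at EEF2 sites of both nucleases run along most of the locus. At EIF4G2 few dsRNase sites lie near the 5′ end.

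EIF4A1 and EIF4A2 are paralogs that encode the DEAD-box helicase of the cap-binding complex, which unwinds the leader of the mRNA. They were the only loci on the plus strand, and as shares of the whole list they had the smallest differences. EIF4A1 (chr17:7476000-7482323) held 1526, 419 and 1012 protected bases with ssRNase and 569, 804 and 997 with dsRNase, ranges that overlap. Its shares were 139 ± 12.9 and 920.0 ± 291 bases per 1000000 (SD, n = 3 of each), a ratio of 6.60 and a log2 difference of -2.52 (SE 0.259, limma adjusted p = 0.00478). Scaling within strands, chosen after seeing the data, widened it to -3.18 and narrowed the minus-strand loci, so that only EEF1A1 (-3.63) and TPT1 (-3.19) lay beyond it. EIF4A2, at -2.27, remained the smallest.

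At EIF4A1 the site with the best score was at the same place in all 6 lists. The 3 ssRNase sites all began at 7481315 and stood at percentile 99.9, 99.1 and 99.8 of their lists. The 3 dsRNase sites ended between 7481357 and 7481366 and stood at percentile 99.0, 98.3 and 98.4. All 6 covered the 43 nt of chr17:7481315-7481357. Of the 4 merged sites from all 6 lists, the one at chr17:7480220-7480286 had long ssRNase sites of 62 to 67 nt, each with a dsRNase site of 34 to 42 nt inside its bounds. At chr17:7480730-7480843 the dsRNase sites of replicates 1 and 2 began at 7480784, next to the first ssRNase sites, which ended between 7480782 and 7480785. A second ssRNase site of replicate 1 (chr17:7480790-7480820) lay inside both of them, and the dsRNase site of replicate 3 (chr17:7480730-7480750) overlapped the ssRNase sites of replicates 1 and 3. Section 3 of the locus held 18.7% ± 4.65 of ssRNase bases and 3.71% ± 3.77 of dsRNase bases (SD, n = 3 of each), without overlap between lists.

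EIF4A2 (chr3:186501361-186507689) leaned most toward ssRNase when bases were compared. It held 2009, 430 and 1400 bases in the ssRNase lists and 402, 527 and 561 in the dsRNase lists. ssRNase replicate 2 fell inside the dsRNase range, so the groups overlap, and the difference of 1.09 in bases did not pass (limma adjusted p = 0.163). Its shares were 172 ± 24.8 and 576 ± 112 bases per 1000000 (SD, n = 3 of each), a ratio of 3.34, the lowest of the 8. The log2 difference was -1.62 (SE 0.213, limma adjusted p = 0.00668), and with scaling by the median of the features it was -0.79 (limma adjusted p = 0.0303).

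Nearly all dsRNase sites of EIF4A2 lay where ssRNase sites lay too. Of its 45 dsRNase sites 91.1% met an ssRNase site, against 46.6% of its 73 ssRNase sites in the other direction. Of its 40 merged sites 25 came from ssRNase alone and 3 from dsRNase alone. The longest merged site of all the loci was here, chr3:186504347-186504642, with 296 nt joined from 17 replicate sites of all 6 lists. At chr3:186502587-186502666 each list had a site of 46 to 73 nt, and 46 nt (chr3:186502607-186502652) were covered in all 6. At its 3′ edge the sites of dsRNase replicates 1 and 3 and ssRNase replicate 2 ended on the same base, 186502652. This locus hosts 5 small nucleolar RNA genes in GENCODE, EIF4A1 3, TPT1 2 and EEF2 and EIF4G2 1 each. Sites of those RNAs were not separated from sites of the mRNA, and their part in these values was not tested.

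EIF4G2 encodes a scaffold related to EIF4G1 that lacks the part binding the cap-binding protein and serves cap-independent initiation. Its locus (chr11:10818593-10830017, minus) held 1730, 392 and 911 bases with ssRNase and 1095, 986 and 1073 with dsRNase. The dsRNase lists agreed closely, and they lay within the wide ssRNase range (difference in bases -0.29, limma adjusted p = 0.645). Shares were 139 ± 28.9 and 1227 ± 190 bases per 1000000 (SD, n = 3 of each), a log2 difference of -2.98 (SE 0.222, limma adjusted p = 0.00446). Section 1 held 18.7% ± 5.28 of ssRNase bases and 3.93% ± 1.04 of dsRNase bases (SD, n = 3 of each), without overlap.

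One stretch of EIF4G2 was protected in all lists with some of the highest scores of the loci. In each of the 3 ssRNase lists the best site of the locus was at chr11:10823073-10823158, at percentile 99.95, 99.84 and 99.93, and in dsRNase replicates 2 and 3 it was there too, at percentile 99.1 and 99.0. The sites of ssRNase replicate 2 and dsRNase replicate 2 here were the same 40 nt, chr11:10823115-10823154, and these were covered in every list. Another merged site, chr11:10821274-10821408, again showed the nucleases side by side. Its dsRNase sites ended between 10821283 and 10821308, and its ssRNase sites of 76 to 94 nt began between 10821308 and 10821315. The third site from all 6 lists, chr11:10818697-10818865, lay at the 3′ end of the locus.

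PABPC1 is the cytoplasmic protein that coats poly(A) tails and joins them to the cap complex, and it is known to bind an A-rich stretch in the leader of its own message. The locus (chr8:101715144-101734315, minus) held 1315, 197 and 548 bases with ssRNase and 516, 573 and 753 with dsRNase, with overlap. Shares were 88.1 ± 35.4 and 718 ± 195 bases per 1000000 (SD, n = 3 of each), a log2 difference of -2.79 (SE 0.31, limma adjusted p = 0.0051). The nucleases lay apart in sections 1 and 2. Section 1 held 36.6% ± 12.4 of ssRNase bases and 10.9% ± 3.65 of dsRNase bases, and section 2 held 3.79% ± 5.95 and 29.0% ± 4.65 (SD, n = 3 of each). Neither section showed overlap between the nucleases. The highest ssRNase value of section 1, 50.8%, came from replicate 2, which had only 7 sites in the locus. Section 5 held 23.4% ± 8.25 of ssRNase bases and 28.8% ± 8.29 of dsRNase bases (SD, n = 3 of each), with overlap. Sections count distance along the gene with introns, so section 1 is not the leader.

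The best ssRNase site of PABPC1 ended on the same base in all 3 lists. These sites of 30 or 31 nt reached 101725017 and stood at percentile 99.8, 99.3 and 99.3. The next ssRNase site began after the same gap of 297 nt (chr8:101725018-101725314) in each list, which equals the length of an intron of PABPC1 in GENCODE. At EEF2 a gap of 371 nt between the same 2 bases, 3979435 and 3979805, likewise equals the length of an intron and appeared in ssRNase replicates 1 and 3. Of 831 gaps between neighbouring sites of a list, 28 had the length of an intron of their gene. Each gene offered between 11 and 40 intron lengths to match, and the rate of matches by length alone was not worked out. Gaps of only 2 nt at EEF1A1 are among the 28. This comparison, made after the values were seen, rests on length alone. Whether reads across splice junctions lie behind such pairs was not tested. The dsRNase sites of replicates 2 and 3 ran past base 101725017, to 101725043 and 101725044. The dsRNase site of replicate 1 was only 10 nt long (chr8:101724988-101724997), and these 10 nt were the ones covered in all 6 lists within the merged site chr8:101724978-101725044.

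TPT1 was the other locus with more protected bases in every dsRNase list. It (chr13:45911300-45915300, minus) held 353, 141 and 205 bases with ssRNase and 470, 542 and 657 with dsRNase. Shares were 36.1 ± 11.6 and 649 ± 150 bases per 1000000 (SD, n = 3 of each), a ratio of 18.0. The log2 difference was -3.57 (SE 0.252, limma adjusted p = 0.00446), and in bases it was -1.26 (limma adjusted p = 0.0292). TPT1 had the second-largest difference after EEF1A1 on both scales.

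At TPT1 ssRNase protection gathered at the 3′ end of the locus, and dsRNase protection lay mostly in sections 2 and 5. Section 5 held 55.6% ± 4.73 of ssRNase bases and 40.3% ± 5.31 of dsRNase bases, and section 2 held 13.6% ± 1.17 and 33.7% ± 0.525 (SD, n = 3 of each). In either section the lists of the nucleases did not overlap. ssRNase replicates 2 and 3 had only 4 and 6 sites in this locus, and their percentages rest on those. A site at chr13:45911704-45911744 was covered along 41 nt in all 6 lists, and dsRNase sites of 110 and 135 nt at chr13:45911323-45911458 in replicates 2 and 1 were the best-scoring sites of their lists in the locus. The other merged site from all 6 lists, chr13:45914108-45914270, was mostly dsRNase protection: its dsRNase sites were 40 to 137 nt long and its ssRNase sites 17 to 26 nt. Bounds cut this locus closely, and widening them by 1000 nt added 2 to 4 ssRNase and 1 to 7 dsRNase sites per list.

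**Figure D4:**
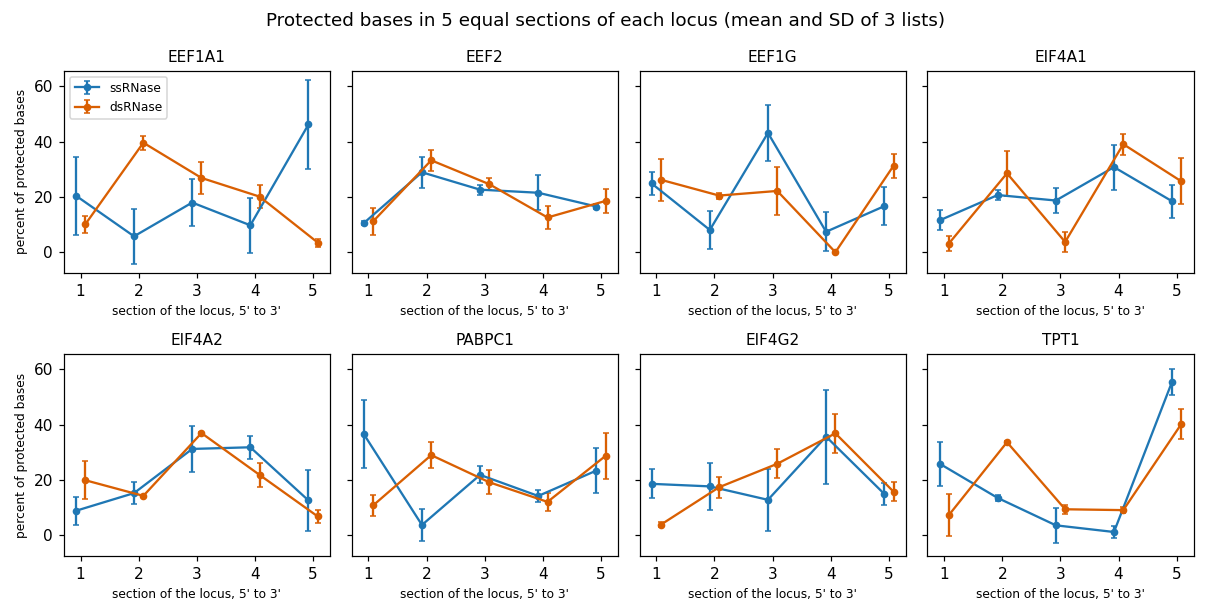
Percent of the protected bases of a locus that lay in each of 5 sections of equal length, numbered from the 5′ to the 3′ bound. Points are means and bars the SD of 3 lists, with ssRNase in blue and dsRNase in orange. The means lie farthest apart in sections 2 and 5 of EEF1A1 and in sections 1 and 2 of PABPC1. In section 2 of TPT1 the lists are also wide apart, at most 14.9% with ssRNase and at least 33.2% with dsRNase. ssRNase replicates 2 and 3 had only 4 and 6 sites in that locus. At EEF2 the nucleases lie closer, with the lists apart in section 4 only.

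Protected sites in the loci came back from list to list. Of the locus sites of the dsRNase lists 85.2%, 81.1% and 80.3% overlapped a site of another dsRNase list (by 1 nt or more), against 51.4%, 47.9% and 54.9% of all sites of those lists. With ssRNase the values were 58.7%, 91.9% and 83.7%, against 52.8%, 89.9% and 62.2%. The locus value was above that of the whole list in 6 of 6 lists, by little in ssRNase replicate 2. Pairs of lists share lists, and longer lists are met more often, so these shares carry no test.

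Between nucleases the order turned. ssRNase sites of the loci met a dsRNase site in 53.9%, 56.5% and 51.8% of cases, well above the 15.1%, 23.2% and 15.4% of all ssRNase sites. dsRNase sites of the loci met an ssRNase site in 54.4%, 50.6% and 49.0% of cases, below the 73.9%, 75.5% and 76.6% of all dsRNase sites. Without ssRNase replicate 1, the longest list, the mean of the latter fell from 51.3% to 33.4%. By locus the share of dsRNase sites that met an ssRNase site ran from 18.4% at EEF1G and 26.5% at EEF1A1 over 38.5% at EEF2, 53.3% at TPT1, 58.2% at EIF4G2, 61.7% at PABPC1 and 70.0% at EIF4A1 to 91.1% at EIF4A2. In this direction the elongation factor loci were the lowest 3. The grouping did not hold for ssRNase sites that met a dsRNase site. EEF1G was lowest there too, but EIF4A2 (46.6%) and PABPC1 (50.9%) lay below EEF2 (51.25%). The part of ssRNase coverage of each locus in these orders was not tested.

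**Figure D5:**
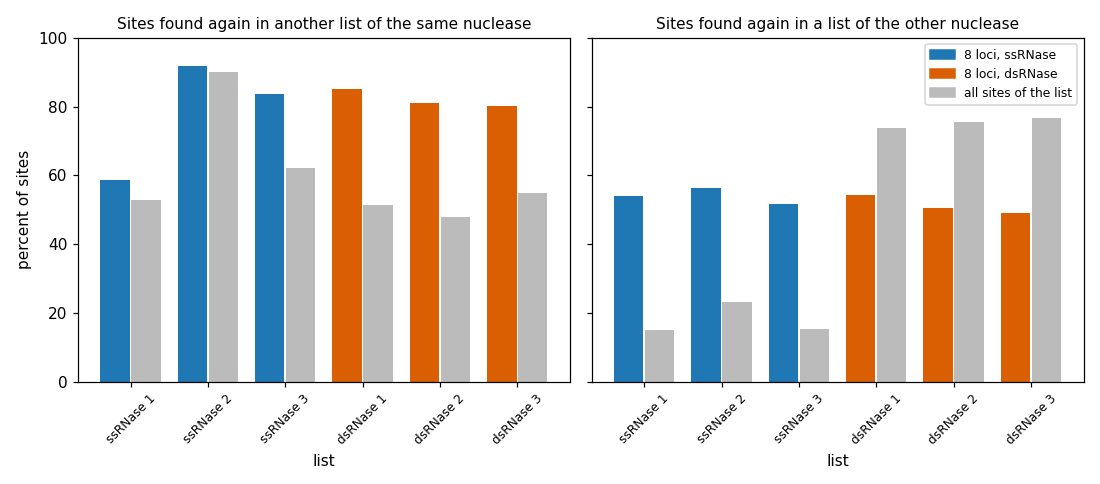
Percent of the sites of each of the 6 replicate lists that overlap, on 1 nt or more of the same strand, a site in another list of the same nuclease (left) or in a list of the other nuclease (right). Coloured bars are sites of the 8 loci and grey bars all sites of the list. In the right panel the ssRNase bars of the loci, at 51.8% to 56.5%, stand above the grey ones, and the dsRNase bars, at 49.0% to 54.4%, stand below them.

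In bases, 17527 nt of the loci (23.0% of their 76336 nt) were covered in at least 1 list, 11385 nt with ssRNase, 9846 nt with dsRNase and 3704 nt with both. The dsRNase lists repeated themselves more: 31.0% of dsRNase nt lay in all 3 dsRNase lists, against 17.3% of ssRNase nt in all 3 ssRNase lists. At EEF1A1 the figures were 48.2% and 11.8%. Only 435 nt were covered in all 6 lists, of which 116 nt were in EIF4A2, 93 nt in EIF4A1, 71 nt in EEF2, 67 nt in TPT1, 51 nt in EIF4G2, 27 nt in EEF1A1, 10 nt in PABPC1 and none in EEF1G. In the list that the authors merged over both nucleases, the loci had 306 of 293016 sites. Of these 95 (31.0%) came from both nucleases and 19 (6.21%) from all 6 lists, against 12.0% and 0.696% of all merged sites.

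Median site lengths followed the nuclease. The median locus site was 43.0, 42.5 and 42.0 nt long in the ssRNase lists and 33.0, 35.0 and 39.0 nt in the dsRNase lists. Means were 42.5 ± 0.5 and 35.67 ± 3.06 nt (SD, n = 3 of each; two-sided exact permutation p = 0.1, the lowest possible), and over all sites of the lists 43.0 ± 1.0 and 33.33 ± 0.577 nt. TPT1 went the other way, with a mean of the list medians of 32.5 ± 6.73 nt with ssRNase and 49.8 ± 9.93 nt with dsRNase (SD, n = 3 of each), and PABPC1 was nearly level at 33.3 ± 7.77 and 34.7 ± 0.577 nt. Locus sites scored above the middle of their lists. Their median stood at percentile 68.7, 76.7 and 73.8 with ssRNase and at percentile 75.0, 81.3 and 72.8 with dsRNase. The top 10% of scores in a list held 22.3% to 29.0% of the ssRNase and 29.3% to 40.2% of the dsRNase sites of the loci.

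Almost no protection was seen on the strand opposite to the genes. The ssRNase lists had 3, 2 and 1 sites there with 92, 38 and 53 bases, which is 0.953%, 1.42% and 0.857% of the site bases between the bounds on both strands, and the dsRNase lists had none (two-sided exact permutation p = 0.1, the lowest possible). They lay at EEF1A1 (chr6:74226200-74226252 in replicate 3 and within it in replicate 1) and at PABPC1 in replicates 1 and 2. Both PABPC1 pairs were split by the same 2135 nt gap (chr8:101719226-101721360), again the length of an intron of that gene, and both sites of a pair had the same score percentile, 84.6 in replicate 1 and 40.9 in replicate 2.

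Several of these genes have near copies, to which reads can map. GENCODE names 39 pseudogenes after EEF1A1, 14 after TPT1, 13 each after EIF4A1 and PABPC1, 8 after EEF1G, 5 after EIF4A2 and none after EEF2 or EIF4G2. Of the 30-base words in the spliced transcript (the longest principal coding one), 74.2% in EEF1G, 46.4% in EIF4A1, 34.1% in EEF1A1, 29.9% in PABPC1, 17.9% in EIF4A2 and 8.80% in TPT1 also occur in a transcript of another gene, and 0 in EEF2 and EIF4G2. The TPT1 transcript used has 4735 nt, more than the 4001 nt of its locus, so its share of words is not that of the locus. Words were shared with 530 other genes at EEF1A1 and 188 at TPT1, more than the pseudogenes named after them. The sources used here do not say how reads with several matches were handled, and values of the 6 genes with shared words are uncertain to that extent. The part of such reads in the results was not tested.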

How the data were processed

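PIP-seq libraries of HEK293T cells were analysed as 6 replicate site lists, each made from 1 footprint library and the digestion control of the same nuclease, so that 12 libraries enter. Abundant sequences were lowered by a duplex-specific nuclease step, per the labels' protocols. Per the submitters' processing notes, the tools were cutadapt (version 0.9.5) for adapters and TopHat2 (version 2.0.9) with hg19. Names of the deposited lists give CSAR as the caller, with a false discovery rate of 5%. The sources used here do not give the normalisation before calling, the scale of the score or the handling of reads with several matches.

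The score is deposited by the authors, 1 per site, and was used only as a percentile within its list. The other deposited values used, the names of replicate sites joined in each merged site, show which lists lie behind it. Positions were read as 1-based and inclusive, and a site belonged to the place of its midpoint. The lists used here hold positions and scores rather than read counts, so tests for counts could not be used and the counting error of a site is unknown.

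limma 3.58.1 (R 4.3.3; lmFit and eBayes) was run on all features with a constant of 20 and Benjamini-Hochberg adjustment. The 8 loci replaced their sites in the stranded 10000 bp windows. Lengths and strands were compared by a two-sided exact permutation test. The members, lists and tests were chosen with earlier results of these data known. All members are named, and so are the merged sites joined from all 6 lists, the longest merged site and the longest stretch covered in the most lists. Other sites in the text were chosen after their values were seen. Start sequences came from RefSeq, where 7 of 8 members were used, and gene structure from GENCODE v29 (GRCh38), as names, counts and lengths only. The overlap code and the limma step were tested on simulated data. Other steps ran in Python 3.11.15 with pandas 2.3.3, numpy 2.4.6 and scipy 1.17.1, and matplotlib 3.10.9 drew the figures.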

Additional observations from a re-analysis of the deposited data

How the results depend on the processing

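Differences in share kept their direction at 8 of 8 loci under all alternatives with scaling, and 8 loci passed with a constant of 5 or 100, numbers of sites, no filter, equal numbers of sites per strand, the better-scoring 50% of sites, median scaling, bounds widened by 1000 nt, assignment by overlap, scaling within strands, features with a site in all 6 lists, and without each dsRNase list. Scaling within strands, features with a site in all 6 lists, bases without scaling and leaving out a list with all features kept were added after seeing the data. Without 1 list, 2 to 8 loci passed (limma), and with the features kept 8. With bases without scaling 2 passed, and EIF4A1 (0.17) and EIF4A2 (1.09) turned sign. Calls over all features toward ssRNase and toward dsRNase numbered 8351 and 2208. Median scaling gave 11679 and 1125, no scaling 20683 and 114, equal numbers of sites 616 and 901, and constants of 5 and 100 gave 11507 and 2103, and 5029 and 1949. With the replicate number as a block, 0 of 8 loci passed (limma adjusted p from 0.0514 to 0.0518; 8 at an unadjusted p below 0.05), as did 0 of all features. Same-numbered lists correlated at 0.02, -0.06 and -0.03 in their deviations from the group means, and other pairs at -0.10 to 0.09. These values cannot tell whether lists of the same number share a culture or a batch. Requiring an overlap of 50% of the site, the sites found with the other nuclease fell from 54.0% to 39.1% (ssRNase) and from 51.3% to 39.4% (dsRNase), and dsRNase sites found in another dsRNase list from 82.2% to 77.1%. Without 1 list the ssRNase shares ran from 59.1% to 78.1% (same nuclease) and from 47.6% to 55.2% (other), and the dsRNase shares from 68.1% to 82.2% and from 33.4% to 52.5%, where fewer lists can be met. With the better-scoring 50% of sites the share of dsRNase sites found with ssRNase was 44.5%, the opposite-strand share with ssRNase 0.446% against 1.08%, and the median length 44.0 and 40.7 nt against 42.5 and 35.67 nt. By number of sites the opposite-strand share was 1.75%. Mean lengths were 44.1 and 39.2 nt, with lists that overlapped (two-sided exact permutation p = 0.2). The cause of these shifts was not tested.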
